A study of Mus musculus with 3 samples.

Results

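Interferon-responsive microglia are a rare state of the brain's resident macrophages in which genes induced by interferon are transcribed together. In single-cell RNA counts of mouse brain microglia they were chosen by 7 such genes, Ifit1, Ifit2, Ifit3, Ifit3b, Rsad2, Isg15 and Oasl1. A cell belonged to the set when these rule genes summed to at least 4 UMIs (unique molecular identifiers, 1 for each captured transcript) and to at least 5 per 10000 of the cell's UMIs. The cell also needed more than 200 and at most 8000 genes, at most 10% mitochondrial UMIs, fewer than 5 UMIs of 5 border macrophage genes and fewer than 5 UMIs of 3 monocyte genes. Of 18340 barcodes deposited, 17407 passed these limits and gates, and 140 of those met the rule, 47 in the Control library, 42 in hCD33M and 51 in hCD33m. They were compared with 12606 other passing cells that held at least 2000 UMIs, called the other cells below.

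The 3 libraries came from brains of mice 8 weeks old on a C57BL/6 background, each library pooling the cells of 2 mice. Control mice are labelled wild type. hCD33M and hCD33m mice carried the long or the short isoform of human CD33, a sialic acid-binding receptor of myeloid cells, as a Rosa26 transgene behind a floxed stop. Crossing with Cx3cr1-Cre mice, in which Cre is made in microglia and other Cx3cr1-expressing cells, removed that stop, and the hCD33m line came from an embryonic stem cell clone. For other assays the study's methods give wild-type mice as Cre carriers that lack the transgene, but they do not say this again for the single-cell mice. The labels call the hCD33m mice female and the others male, whereas the study's text speaks of male mice, so sex as labelled cannot be told apart from genotype. Cells were isolated in the presence of inhibitors of transcription and translation, and CD11b+ CD45low Cx3cr1+ cells were sorted before droplet capture. With 1 library for each genotype no test between genotypes was possible.

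Interferons are secreted proteins that bind receptors on the cell surface. The receptor-bound kinases Jak1 and Tyk2 phosphorylate STAT proteins, which join Irf9 and switch on genes whose promoters carry an interferon-stimulated response element. The products of these genes bind viral RNA, block translation, conjugate the ubiquitin-like protein Isg15, present antigen and attract leukocytes. In brain, small numbers of microglia in this state are known from development, ageing, infection and amyloid disease, and also from healthy animals.

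Ifit1, Ifit2, Ifit3 and Ifit3b encode tetratricopeptide proteins that bind foreign RNA, Rsad2 encodes the radical SAM enzyme viperin, Isg15 the ubiquitin-like modifier and Oasl1 a relative of the oligoadenylate synthetases. The promoters of 5 of these 7 genes (71.4%) held the core of the interferon-stimulated response element, searched as GAAANNGAAA on both strands in RefSeq promoter windows of GRCm38.p6, the build of the deposited counts. The same letters occurred in 1079 of 27025 mouse genes with such a window (3.99%), a gene counting once if any of its windows held them. The stretches are shown because the choice of cells rests on these genes, with each match on either strand in capitals.
Ifit1, chr19:34640760-34640838, plus strand: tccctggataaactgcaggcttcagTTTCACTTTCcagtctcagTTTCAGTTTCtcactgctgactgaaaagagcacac
Ifit3, chr19:34583348-34583441, plus strand: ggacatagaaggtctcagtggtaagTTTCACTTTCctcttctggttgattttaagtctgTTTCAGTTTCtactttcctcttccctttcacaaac
Ifit3b, chr19:34607744-34607837, plus strand: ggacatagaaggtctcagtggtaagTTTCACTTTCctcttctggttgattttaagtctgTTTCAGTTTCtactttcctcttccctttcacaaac
Rsad2, chr12:26456538-26456597, minus strand: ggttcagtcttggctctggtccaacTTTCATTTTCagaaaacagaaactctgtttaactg
Isg15, chr4:156200850-156200921, minus strand: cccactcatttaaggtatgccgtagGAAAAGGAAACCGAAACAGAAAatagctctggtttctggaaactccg
Ifit1, Ifit3 and Ifit3b held 2 matches each, Rsad2 held 1, and Isg15 held 3 overlapping ones. Counted from the start of the transcript that each window belongs to, the nearest match lay 76 bases before it in Ifit1, 113 in Ifit3, 145 in Ifit3b, 111 in Rsad2 and 57 in Isg15. For Ifit3 and Ifit3b that start lies inside the annotated span of the gene and not at its first base. The Ifit3 and Ifit3b stretches were the same 94 bases, and these neighbouring copies share so much sequence that the split of reads between them is uncertain. No match lay in the windows of Ifit2 and Oasl1. A match is a run of letters and not evidence of binding.

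The 7 rule genes chose the cells, so their levels are a description. In CPM (counts-per-million, the gene's UMIs scaled to all UMIs of the summed cells), Isg15 had 444, 661 and 585 in members against 11.6, 13.9 and 11.2 in the other cells, groups of 3 values being given throughout in the order Control, hCD33M, hCD33m. Ifit3 was at 580.0, 540.0 and 692 CPM in members against 7.01, 6.77 and 5.27. Ifit2 was at 348, 278 and 402 CPM against 3.88, 3.15 and 2.24. These levels lay within the same range in every library. Ifit1 was at 180.2, 307 and 288 CPM against 1.85, 1.76 and 1.36, and Ifit3b at 190.0, 158 and 141 against 0.783, 0.813 and 0.538. Oasl1 was at 42.0, 61.9 and 75.9 CPM against 0.356, 0.203 and 0.142. Rsad2 stood apart in 1 library, at 180.2 CPM in Control, 633 in hCD33M and 161 in hCD33m. A single hCD33M cell held 173 of the 225 Rsad2 UMIs of that library's members (76.9%), and without it Rsad2 was at 152 CPM there.

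Members differed in which rule genes they held. Isg15 had a UMI in 123 of the 140 members, Ifit3 in 122, Ifit2 in 99, Ifit1 in 81, Ifit3b in 71, Rsad2 in 59 and Oasl1 in 42. Only 1 member held a single rule gene, 17 held 2, 32 held 3, 33 held 4, 22 held 5, 21 held 6 and 14 held all 7. When cells were chosen by the same limits on 6 of the genes and the remaining gene was read out, that gene stayed high. Isg15, left out of the choice, was at 474, 810.2 and 622 CPM in cells chosen on the other genes, against 12.8, 15.02 and 11.9 in the remaining cells. Oasl1, the sparsest of the 7, was at 39.6, 59.9 and 74.2 CPM in cells chosen without it, against 0.356, 0.237 and 0.170. The median log2 ratio over the 7 genes, each read where it was left out, came to 6.57, 7.08 and 7.39. The members were chosen with earlier results of these data known, and the split of reads between Ifit3 and Ifit3b is uncertain. These ratios are therefore a description too.

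**Figure D1:**
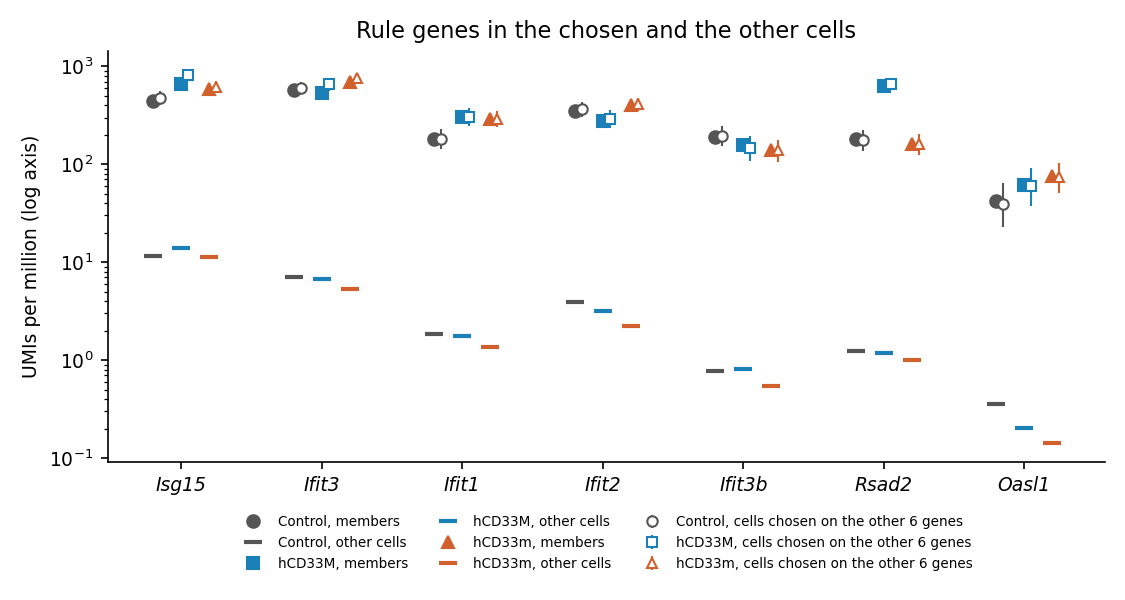
Level of each of the 7 rule genes (CPM, log axis) in the chosen cells (filled symbols), in cells chosen on the other 6 genes (open symbols, bars are exact Poisson 95% intervals for counting error) and in the other cells (dashes), by library. Filled and open symbols lie close together, and the highest point that 1 library sets apart is Rsad2 in hCD33M at 633.

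The rule cut a gradient and not a gap. Of the members, 33 had only 4 or 5 rule-gene UMIs, 47 lay at 5 to under 10 per 10000, 33 at 10 to under 20 and 60 at 20 or more. Just outside, 20 passing cells had 3 rule-gene UMIs at 5 or more per 10000, and 42 had 4 or more UMIs but under 5 per 10000, these being deep cells with a median of 23741 UMIs. At least 1 rule-gene UMI was found in 1947 of the 17407 passing cells (11.2%, exact binomial 95% interval 10.7 to 11.7%). The median member held 10 rule-gene UMIs in Control, 8 in hCD33M and 15 in hCD33m, and the highest held 120, 329 and 85.

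The label fits most of the cells as microglia. The 6 microglial markers, among them P2ry12, Tmem119 and Sall1, summed, had a median of 182 per 10000 UMIs in members and 196 in the other cells, and 138 of the 140 members held at least 3 of the 6. In members they ranged over medians of 185 in Control, 189 in hCD33M and 166 in hCD33m. Under 100 per 10000 fell 8 members, 3 in Control, 0 in hCD33M and 5 in hCD33m. The 3 Control cells were at 21.0, the lowest of all members, 58.8 and 66.2 per 10000. Of the 8, 3 from hCD33m had only 4 rule-gene UMIs each, 26.6, 49.0 and 51.9 microglial marker UMIs per 10000, and 255 to 312 UMIs of the MHC class II genes H2-Aa, H2-Ab1, H2-Eb1 and Cd74. The 3 Control cells held 0, 6 and 12 such UMIs. A further 2 members were rich in MHC class II, an hCD33m cell with 384 such UMIs and 33 rule-gene UMIs, and the hCD33M cell with 329 rule-gene UMIs, which held 156. These 5 cells (0 in Control, 1 in hCD33M and 4 in hCD33m) are called the MHC class II-rich members. Without them and the like cells of the other class, 299 genes were higher and 56 lower in the comparison described below (321 and 64 with them), and the lists whose counts of higher genes changed were antiviral effectors, from 53 to 51, surface proteins, from 12 to 9, chemokines and cytokines, from 9 to 8, disease-associated genes, from 12 to 11, MHC class II genes, from 4 to 1, and monocyte markers, from 2 to 1. In that fit Slfn1, Cd40, Cd69, Slamf7 and Ch25h were not tested, so their loss is not a failed test. Among all passing cells 49 were as rich in MHC class II genes, so 5 of the 49 met the rule.

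The 6 monocyte markers summed to 9.87, 16.9 and 84.8 CPM in members against 15.1, 12.4 and 19.7 in the other cells, with Ly6c2 and Chil3 at 0 in all members. Of the 3 monocyte markers with enough counts for the test described below, 2 were called higher in members, Plac8 and Ccr2. Plac8, Ly6c2 and Chil3 are the 3 genes of the monocyte gate. The choice of cells thus limited their values, so the Plac8 call is a description. Plac8 was higher in each library, at 7.40, 11.3 and 11.2 CPM against 1.17, 1.25 and 1.39 (log2 2.98, SD 0.26), from 12 UMIs in 10 members. Ccr2 was higher in 1 of 3 libraries (log2 1.16, edgeR adjusted p = 0.021, DESeq2 adjusted p = 1.00). In hCD33m that sum rested largely on Ccr2, at 71.4 CPM with the 4 MHC class II-rich cells and 2.38 without them. The 6 border macrophage markers summed to 2.47, 5.63 and 31.2 CPM against 10.6, 12.9 and 8.50, with Cd163 and Lyve1 at 0 in members. The T cell marker Cd3d and the NK cell marker Klrb1c, the only markers of their lists in the files, were at 0 in members. The gates themselves limited the monocyte and border macrophage sums in both classes. The part of these markers in the results below was not tested.

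The libraries held 32272657, 36413491 and 40629705 UMIs in Control, hCD33M and hCD33m. Members were slightly deeper than the other cells, with median UMIs of 6119, 6137 and 6464 against 5376, 5267 and 5388. Of 25 barcodes found in several libraries none was a member. Intervals and Poisson or binomial errors throughout cover counting error only.

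Beyond the rule, the members carried a broad interferon program. Counts were summed over members and over the other cells in each library. The 6 sums were fitted with edgeR's quasi-likelihood test with library as a block and Benjamini-Hochberg adjustment, which fits 1 common difference over the 3 libraries. Of 11792 genes tested, 321 (2.72%) were higher in members and 64 (0.543%) lower at an adjusted p under 0.05. All 64 lower genes and 293 of the higher ones moved the same way in every library. The rise was often large, 196 genes by 2-fold or more and 108 by 4-fold or more, whereas only 7 genes fell by 2-fold or more. Some genes nearly absent from the other cells, among them Slfn1, Oas3, Ifi211, Iigp1, Gbp4 and Cd69, passed the filter on low counts through members only. Such genes could only be called higher, so their calls are a description. DESeq2 called 254 genes higher and 11 lower, of which 245 and 11 were also called by edgeR. The 3 sums of each class come from 3 libraries of different genotype, so p-values say nothing of other mice. A small edgeR p did not mean that the libraries were alike. Cd74 had log2 ratios of -0.53, 2.06 and 3.71 in the 3 libraries and an edgeR adjusted p of 6.3e-131. The fitted common dispersion was only 0.00446, and UMIs held by few cells count in full. Fold changes below are log2 of members over other cells, with the standard deviation (SD) of the 3 libraries' own log2 ratios as error.

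Interferon genes themselves were not seen in members. Of 21 interferon genes listed, only Ifnz is in the files, and it had no UMI in any member. The authors kept only genes found in at least 3 cells, so a gene that is not listed was at most very rare.

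No rise was called for the receptors and their kinases. Of the 8 genes of that list 0 were called higher by edgeR or DESeq2, and Jak2 was the only higher gene with an unadjusted edgeR p under 0.05. Ifnar1 and Ifnar2, the subunits of the type I receptor, had log2 fold changes of -0.14 (SD 0.43) and 0.03 (SD 0.14) with edgeR adjusted p of 0.87 and 0.97. Ifngr1, the ligand-binding chain of the interferon gamma receptor, was at 834, 810.1 and 670 CPM in members against 939, 986 and 845 in the other cells. It was lower in every library, and its log2 change of -0.24 (SD 0.08) passed in edgeR (adjusted p = 0.026) but not in DESeq2 (adjusted p = 0.39). The kinases Jak1, Tyk2 and Jak2 had log2 fold changes of -0.21, -0.12 and 0.63 and did not pass (edgeR adjusted p 0.47, 0.94 and 0.26).

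Of 14 STAT and IRF factors tested, 6 were higher in every library and none lower. Irf7, the factor that amplifies type I interferon production, was at 143, 155 and 141 CPM in members against 3.38, 4.30 and 2.78. The members exceeded the other cells in each library, with a log2 fold change of 5.44 (SD 0.25, edgeR adjusted p = 1.3e-91). Stat2, a subunit of the factor that binds the response element, was at 141, 115 and 112 CPM against 16.9, 18.1 and 16.8 (log2 2.86, SD 0.21). Smaller changes were called for a further 3 of these factors. Irf1 was at log2 1.40 (SD 0.32), Irf9, the DNA-binding partner of the STATs, at 0.84 (SD 0.32) and Irf8, a factor of macrophage identity, at 0.24 (SD 0.05). Irf3, which is held ready as protein and activated by phosphorylation, had a log2 fold change of -0.15 (SD 0.13) and Stat3 of 0.14 (SD 0.28), and neither passed. Over the list the median was 0.14, against -0.04 over all genes tested.

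Of 15 sensors of nucleic acids and their adaptors tested, 8 were higher in every library and none lower. Ifi207 and Ifi204, of the family of HIN domain DNA-binding proteins on chromosome 1, and Zbp1, which binds left-handed nucleic acid, rose most. Zbp1 was at 98.7, 67.5 and 87.1 CPM in members against 1.96, 1.76 and 1.36, a log2 fold change of 5.67 (SD 0.37, edgeR adjusted p = 8.7e-59). Ifi204 was at 526, 399 and 386 CPM against 17.8, 18.1 and 12.9, a log2 fold change of 4.78 (SD 0.25). The cytosolic RNA helicases followed, Dhx58 at log2 2.93 (SD 0.27), Ddx58, which encodes RIG-I, at 2.37 (SD 0.11) and Ifih1, which encodes MDA5, at 1.96 (SD 0.44). Mb21d1, which encodes the DNA sensor cGAS, was at log2 1.02 (SD 0.06) and Tlr3 at 0.76 (SD 0.18). The other 7 did not pass. Of these the sensors Aim2, Tlr7 and Tlr9 had log2 fold changes of 0.17 (SD 0.14), 0.24 (SD 0.01) and 0.37 (SD 0.58). The adaptors Mavs, Tmem173, which encodes STING, Myd88 and Ticam1 had log2 fold changes of -0.20 (SD 0.21), -0.08 (SD 0.19), 0.20 (SD 0.50) and -0.57 (SD 0.86).

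Antiviral effectors were the list with most calls, 53 of 58 tested higher and none lower, with a median log2 fold change of 2.34. All 53 were higher in every library, and 51 were also called by DESeq2. Oasl2, an oligoadenylate synthetase-like protein, was at 267, 188 and 225 CPM in members against 3.84, 3.66 and 3.004. No library's members approached the other cells, and the log2 fold change was 6.04 (SD 0.29, edgeR adjusted p = 1.2e-141). Mx1, a dynamin-like antiviral GTPase, was at 165, 158 and 158 CPM against 3.52, 3.59 and 2.78, a log2 fold change of 5.64 (SD 0.20, edgeR adjusted p = 7.2e-101). Ifi211, a HIN domain protein, was at 104, 78.8 and 46.9 CPM against 0.605, 0.271 and 0.312 (log2 7.58, SD 0.50), and was found in 29 members. Cmpk2, a mitochondrial nucleotide kinase, was at 29.6, 84.4 and 46.9 CPM against 0.925, 1.15 and 0.680 (log2 5.84, SD 0.67). Slfn1 and Oas3 had high folds, log2 7.38 and 7.07, from 12 and 18 UMIs in 8 and 14 members. They were at 0.0538 and 0.108 CPM in the other cells, so they entered the test through members and could only be called higher.

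Ifitm3, which blocks virus entry from endosomes, was at 550.4, 568 and 435 CPM in members against 25.01, 19.5 and 23.9 (log2 4.52, SD 0.34) and was found in 109 members. Bst2, which encodes the virion tether tetherin, was at 743, 807 and 647 CPM against 173, 175 and 147 (log2 2.18, SD 0.05) in 129 members. Rtp4, a restriction factor for several viruses, was at 276, 270.02 and 272 CPM against 19.7, 19.9 and 14.7 (log2 3.96, SD 0.25), and Slfn5, a Schlafen protein, at 286, 245 and 315 against 7.72, 8.64 and 6.66 (log2 5.24, SD 0.37). Eif2ak2, the kinase PKR that halts translation on double-stranded RNA, was at log2 2.17 (SD 0.31), Samhd1, which depletes nucleotides, at 1.38 (SD 0.22) and Adar, which edits double-stranded RNA, at 1.38 (SD 0.38). Among the genes of the list that did not pass were Oas1g, Parp11, Ifitm2 and Ifi27. The synthetase Oas1a was at log2 3.77 (SD 0.19).

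To compare how many cells carried a transcript, each cell with at least 2000 UMIs was thinned to 2000, which leaves 43, 39 and 50 members. Oasl2 was then found in 51.2, 25.6 and 26.0% of members against 0.775, 0.523 and 0.627% of other cells, and Irf7 in 20.9, 23.1 and 34.0% against 0.725, 0.811 and 0.502%. Detection of Oasl2 and Irf7 was thus partial at equal depth. P2ry12 was found in 97.7, 100 and 88.0% of members and in 99.3, 99.2 and 98.7% of other cells. Over all members P2ry12 had 2884 CPM, against 228 for Oasl2 and 146 for Irf7. At 2000 UMIs a transcript of lower level is missed more often. Partial detection therefore does not show that only some members expressed a gene.

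Most of the machinery of Isg15 conjugation rose. Of 5 genes tested 4 were called higher, each in every library. Usp18, the protease that removes Isg15 and blocks the type I receptor, was at 202, 152 and 183 CPM in members against 3.84, 6.16 and 3.66 (log2 5.36, SD 0.61, edgeR adjusted p = 5.2e-108). The conjugating enzyme Ube2l6 was at log2 2.60 (SD 0.09), the ligase Herc6 at 2.49 (SD 0.13) and Trim25 at 1.83 (SD 0.28). The activating enzyme Uba7, which acts first, was at 79.0, 56.3 and 35.7 CPM against 48.3, 38.3 and 36.3. It was higher in members of Control and hCD33M but not of hCD33m. It did not pass (edgeR adjusted p = 0.30), which does not show that it stayed level. Of 14 negative regulators 2 were higher, Usp18 and Socs1. Socs1, an inhibitor of Jak kinases, was at 74.0, 30.9 and 49.1 CPM against 8.08, 8.16 and 8.11 (log2 2.68, SD 0.64). Socs3 had a log2 fold change of 0.30 (SD 0.50) and did not pass.

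Interferon-inducible GTPases, which attack vacuoles that hold parasites or bacteria, had the highest median of the lists, a log2 fold change of 3.15, and 15 of 17 tested were higher in every library. Iigp1 was at 79.0, 78.8 and 51.3 CPM in members against 0.285, 0.644 and 0.198, a log2 fold change of 7.59 (SD 0.65) from 31 members. Gbp4, a guanylate-binding protein, was at 22.2, 33.8 and 26.8 CPM against 0.391, 0.576 and 0.482 (log2 5.84, SD 0.04). Gbp6 and Tgtp2 were at 0.129 and 0.409 CPM in the other cells of all libraries. Like Iigp1 and Gbp4, they entered the test through members and could only be called higher. The calls of these genes are a description, and they count in the 15 and in the median. Irgm1 was at log2 2.22 (SD 0.13), Igtp at 1.68 (SD 0.35) and Gbp7 at 1.01 (SD 0.08). Gbp3 and Gbp8 did not pass. Guanylate-binding proteins lie in arrays of close copies, so reads may be split between them.

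**Figure D2:**
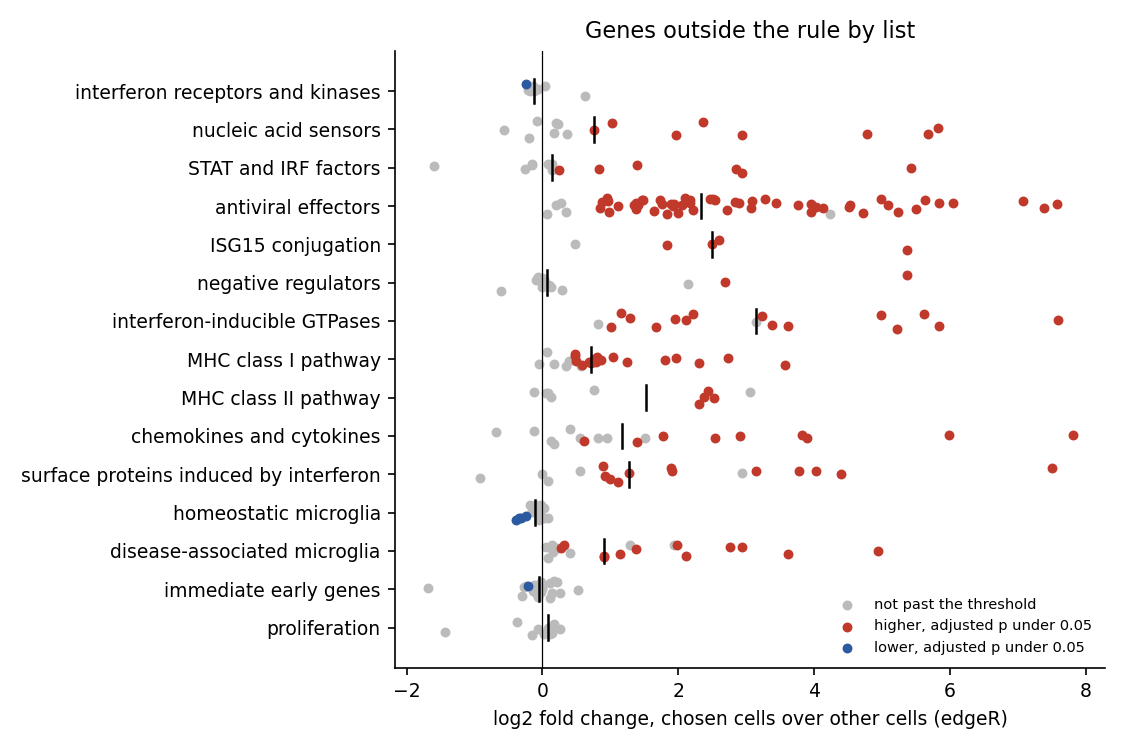
Log2 fold change of chosen over other cells (edgeR, x axis) for each tested gene of 15 lists, with genes past an adjusted p of 0.05 in red (higher) or blue (lower), the rest in grey, and a black bar at each list's median. Antiviral effectors and interferon-inducible GTPases lie to the right with medians of 2.34 and 3.15, and receptors, homeostatic and immediate early genes stay near 0.

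Of 23 MHC class I pathway genes tested 17 were higher in every library and none lower, with a median log2 fold change of 0.71. H2-K1, a classical heavy chain, was at 889, 1004 and 781 CPM in members against 538, 539 and 420 (log2 0.87, SD 0.10, edgeR adjusted p = 1.6e-31). B2m, the shared light chain, was at 2436, 2180 and 1971 CPM against 1707, 1593 and 1526 (log2 0.47, SD 0.07). Every library's members exceeded the other cells for both genes. The peptide pump Tap1 was at log2 1.80 (SD 0.14), and Nlrc5, the transactivator of class I genes, at 3.57 (SD 0.75) from 26 members. H2-Q7 was at 79.0, 113 and 35.7 CPM against 12.2, 12.1 and 9.01 (log2 2.73, SD 0.62), and 27 of its 88 UMIs came from 1 cell. The chaperones Calr and Pdia3 had log2 fold changes of 0.06 and -0.05 and did not pass, nor did H2-M3, Tap2, Tapbpl and Erap1.

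For MHC class II genes the edgeR fit called 4 of 10 tested higher, H2-Aa, H2-Ab1, H2-Eb1 and Cd74, but none was higher in every library and DESeq2 called none. H2-Aa had no UMI in Control members, 33 UMIs in 1 hCD33M member and 223 in hCD33m members (497.7 CPM), against 30.7, 19.0 and 35.9 CPM in the other cells of the 3 libraries. Without the 5 MHC class II-rich members H2-Aa and H2-Eb1 had no UMI in any member. Cd74, the invariant chain, fell from 242 to 17.5 CPM in hCD33M members and from 1364 to 88.0 in hCD33m members when those cells were left out, and was at 66.6 in Control. In the fit without MHC class II-rich cells Cd74 was still called by edgeR (log2 1.49) and the other 3 genes were not. Ciita, the transactivator of class II genes, was at 0, 8.44 and 8.93 CPM in members and did not pass (edgeR adjusted p = 0.091).

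Chemokines were raised unevenly among the members. Of 18 chemokine and cytokine genes tested 9 were higher, 8 of them in every library. Ccl12, a ligand of Ccr2, was at 1910, 1361 and 1803 CPM in members against 146, 110.2 and 108 (log2 3.83, SD 0.23), and it was found in 115 of the 140 members. Cxcl10, which attracts T cells through Cxcr3, was at 289, 492 and 525 CPM against 2.99, 1.46 and 1.53 (log2 7.81, SD 1.05, DESeq2 adjusted p = 1.3e-39). It came from 25 members only, and in hCD33M 1 cell held 124 of 175 UMIs, without which the level was 149 CPM. Ccl5 was at 64.2, 683 and 100.4 CPM against 3.42, 4.17 and 2.18 (log2 5.99, SD 1.57). It came from 14 members, and without that same hCD33M cell, which held 240 of 243 UMIs, it was at 8.77 CPM there. Ccl2, which recruits monocytes, was at 83.9, 141 and 132 CPM against 6.97, 12.97 and 33.3 (log2 2.90, SD 0.89). Il1b and Il6 had log2 fold changes of -0.69 and 0.55 and Tnf of 0.95, and none of these cytokines passed (edgeR adjusted p 0.89, 0.49 and 0.22).

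Surface proteins induced by interferon were higher for 12 of 17 genes tested, 11 of them in every library. Ly6a was at 114, 245 and 89.3 CPM in members against 8.72, 10.9 and 6.83 (log2 4.03, SD 0.45), and Fgl2 at 180.2, 160.3 and 183 against 12.9, 12.97 and 12.9 (log2 3.78, SD 0.11). Both were higher in each library. Ly6e, an abundant GPI-anchored protein, was at 2095, 2081 and 1661 CPM against 1133, 1114 and 960 (log2 0.89, SD 0.06), in 139 members. Cd274, which encodes the checkpoint ligand PD-L1, was at log2 1.89 (SD 0.65) from 39 UMIs. Cd69, which holds lymphocytes in tissue, had a log2 fold change of 7.51 (SD 4.42), but 39 of its 45 UMIs lay in 1 hCD33M cell. The costimulatory gene Cd86 was at log2 0.08 (SD 0.14) and did not pass.

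**Figure D3:**
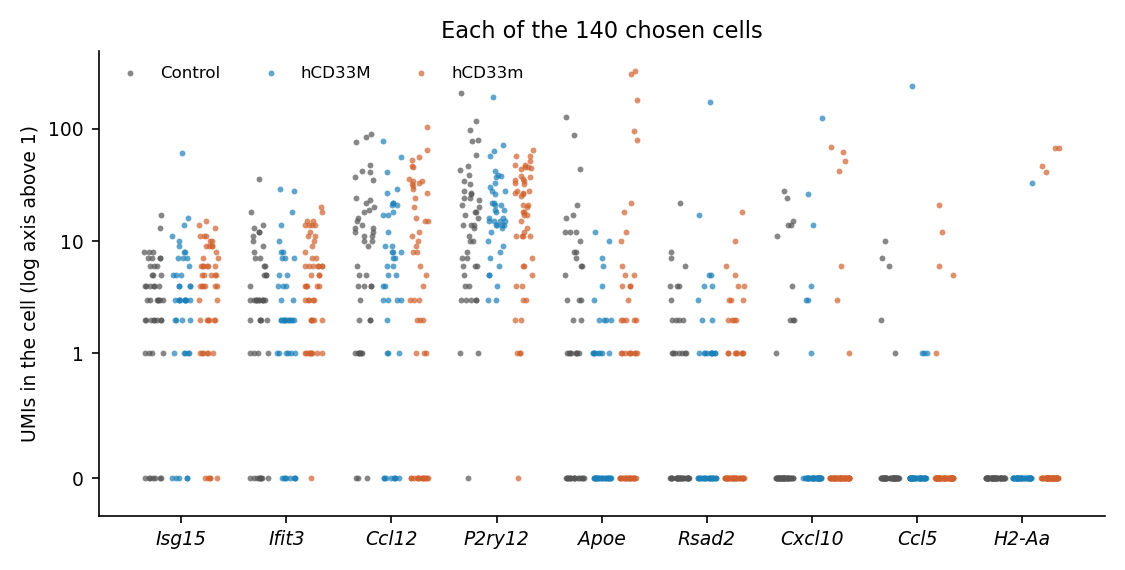
UMIs of 9 genes in each of the 140 chosen cells (points, log axis above 1, 0 shown at the base), by library. Isg15, Ifit3, Ccl12 and P2ry12 spread over most cells, whereas the highest counts of Rsad2 (173), Cxcl10 (124) and Ccl5 (240) lie in 1 hCD33M cell and H2-Aa is above 0 in 5 cells.

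The homeostatic genes of microglia were close to those of the other cells. Of 24 tested none was higher and 4 were lower, each in every library and by small factors, and the median log2 fold change was -0.11. Over all genes tested, 64 of 11792 (0.543%) were lower. P2ry12, the purinergic receptor of surveying microglia, was at 3088, 2982 and 2623 CPM in members against 3461, 3561 and 3409 (log2 -0.24, SD 0.11, edgeR adjusted p = 0.00075). Fcrls was at 1664, 1634 and 1324 CPM against 2092, 2059 and 1714 (log2 -0.32, SD 0.02), and Gpr34, a lysophospholipid receptor, at 1772, 1741 and 1612 against 2237, 2223 and 2157 (log2 -0.34, SD 0.04). Slc2a5, a fructose transporter, was at log2 -0.38 (SD 0.14) and was not called by DESeq2, which called the other 3. Tmem119 and Cx3cr1 had log2 fold changes of -0.04 and -0.05 and did not pass. Mouse Cd33, the counterpart of the human transgenes, was at 486, 450.04 and 402 CPM in members against 523, 468 and 472 (log2 -0.11, SD 0.09, edgeR adjusted p = 0.74).

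Genes of disease-associated microglia gave a mixed picture. Of 21 tested 12 were called higher, 8 of them in every library and by DESeq2. Cybb, a subunit of the phagocyte NADPH oxidase, was at 71.6, 59.1 and 84.8 CPM in members against 5.73, 4.81 and 7.40 (log2 3.62, SD 0.07). It was found in 19 members, and without the MHC class II-rich members it was at 8.77 CPM in hCD33M and 42.8 in hCD33m. Axl, a receptor for dying cells, was at log2 2.12 (SD 0.90), the growth factor Csf1 at 1.98 (SD 0.38) and Cd52 at 0.91 (SD 0.15). Apoe, the lipid carrier, was at 1037, 163 and 2464 CPM against 653, 459 and 528, higher in 2 libraries and lower in hCD33M. Its edgeR call (log2 0.90, SD 1.87) was not made by DESeq2 (adjusted p = 1.00), and 326 of its 1582 UMIs in members lay in 1 cell. Trem2 and Tyrobp, a lipid receptor and its adaptor, had log2 fold changes of -0.01 and 0.08 and did not pass.

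Calls in the other lists were few, and the chaperones had the most. Of 24 immediate early genes none was higher and only Rhob was lower (log2 -0.22, SD 0.12, edgeR adjusted p = 0.033, DESeq2 adjusted p = 0.46). Of 11 proliferation genes tested, 0 were called by edgeR or DESeq2, and 0 had an unadjusted edgeR p under 0.05. Of 12 heat shock chaperones 3 were higher, Dnaja1, Hspa8 and Hsp90ab1, by log2 0.47, 0.23 and 0.22, although Hspa8 was lower in hCD33m members. Over all genes tested 2.72% were higher. The chaperones had a median log2 fold change of 0.23, against -0.04 over all genes tested. Of 14 complement and phagocytosis genes C4b was called higher from 15 UMIs and 1 gene was called lower, and C1qa, C1qb and C1qc had log2 fold changes of 0.11, 0.15 and 0.08 and did not pass.

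Of the 64 lower genes, 57 belonged to none of the lists fixed for this work, and 4 were homeostatic genes of microglia. Sox4, a transcription factor, had the lowest adjusted p, at 234, 250.3 and 212 CPM in members against 347, 409 and 385 (log2 -0.68, SD 0.15, edgeR adjusted p = 4.8e-11). The members lay below the other cells in every library. Hist1h1d, a linker histone, was at 24.7, 22.5 and 24.6 CPM against 48.6, 76.6 and 65.8 (log2 -1.36, SD 0.40, edgeR adjusted p = 8.5e-07). Of called genes lower in every library with at least 50 CPM in either class, the next by size were Peli2, Gramd1a, Hist1h2ac, Brd9, Apc and Ccar1, with log2 changes of -0.76, -0.71, -0.71, -0.64, -0.62 and -0.62, and DESeq2 called none of these 6.

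Some higher genes lay side by side in the genome. With positions from RefSeq on GRCm38.p6 for 11342 of 11799 genes, 9 runs of at least 4 higher or rule genes, no more than 200 kb apart, held 50 of 320 higher genes with a position. Higher genes were 2.72% of all genes tested, and the number of runs expected from gene order alone was not tested. On chromosome 1, from 173468485 to 173913087, all 9 tested genes of the Ifi200 family were higher, Ifi206, Ifi214, Ifi213, Ifi209, Ifi208, Ifi207, Ifi204, Mndal and Ifi211, of which Mndal had UMIs in 3 hCD33m members only. On chromosome 19, from 34473783 to 34650009, 1 higher gene, Ch25h, stood beside the rule genes Ifit2, Ifit3, Ifit3b and Ifit1, so this run exists through genes that chose the cells. Ch25h had no UMI in Control members, and 15 of its 22 UMIs in 4 members lay in 1 cell (DESeq2 adjusted p = 0.27). On chromosome 7, from 104244448 to 104507853, 7 of 9 tested genes were higher, all Trim12, Trim30 or Trim34 genes, and on chromosome 11, from 82951349 to 83122670, 5 of 6, all Schlafen genes. On chromosome 17, from 33909404 to 34316674, 9 of 29 were higher, Daxx, Tapbp, H2-K1, Psmb9, Tap1, Psmb8 and the class II genes H2-Ab1, H2-Aa and H2-Eb1. In the fit without MHC class II-rich cells, Daxx and these class II genes were not called. On chromosome 11, from 48865245 to 49263027, 7 of 10 were higher, among them Irgm1, Tgtp2 and Ifi47. The Phf11 genes on chromosome 14, the Oas genes on chromosome 5 and the class I genes H2-D1, H2-Q4, H2-Q6 and H2-Q7 on chromosome 17 gave further runs, with 4 higher genes each. In the fit without MHC class II-rich cells, Phf11c was not called and Slfn1 was not tested, so the Phf11 run fell below the minimum of 4 genes. Members of such families are close copies, and reads shared between copies could spread a change along a run.

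The strength of the rule-gene signal was followed by most interferon lists. Passing cells with at least 2000 UMIs were placed in ranges of the rule-gene rate, with 12 to 25 cells a library in the top range of 20 or more per 10000. The antiviral effectors, summed, went from 1849 CPM at a rate of 0 through 2204, 5061 and 8923 to 14925 in Control. They went from 1861 through 2239, 5854 and 6877 to 17263 in hCD33M, and from 1756 through 2124, 5027 and 6339 to 11615 in hCD33m. Each library rose from range to range. Between a rate of 0 and the top range this was a log2 ratio of 3.01, 3.21 and 2.73. The interferon-inducible GTPases stayed low until the upper ranges, at 275, 295, 406, 911 and 2620 CPM in Control, and ended at 2992 in hCD33M and 1589 in hCD33m.

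Genes differed in where along the rate they appeared. Usp18 was already at 81.2, 66.3 and 81.2 CPM in cells at 5 to under 10 per 10000, and at 404, 381 and 306 in the top range. Cxcl10 was at 0, 84.4 and 0 CPM in the range of 5 to under 10, against 394, 1906 and 881 in the top range. Ifi211 was at 0, 6.03 and 8.12 CPM there and at 352, 282 and 86.6 in the top range. In hCD33M members 1 cell held 124 of 175 Cxcl10 UMIs and 1 cell held 16 of 28 Ifi211 UMIs. MHC class I genes, summed, were at 6292, 6191 and 5464 CPM at a rate of 0 and at 10637, 11462 and 7567 in the top range. The homeostatic genes, summed, went from 108700 to 92027 CPM in Control, from 105757 to 92115 in hCD33M and from 105690 to 98225 in hCD33m. These ranges were set by the rule genes and are a description, and a cell of low depth reaches a high rate with few UMIs.

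**Figure D4:**
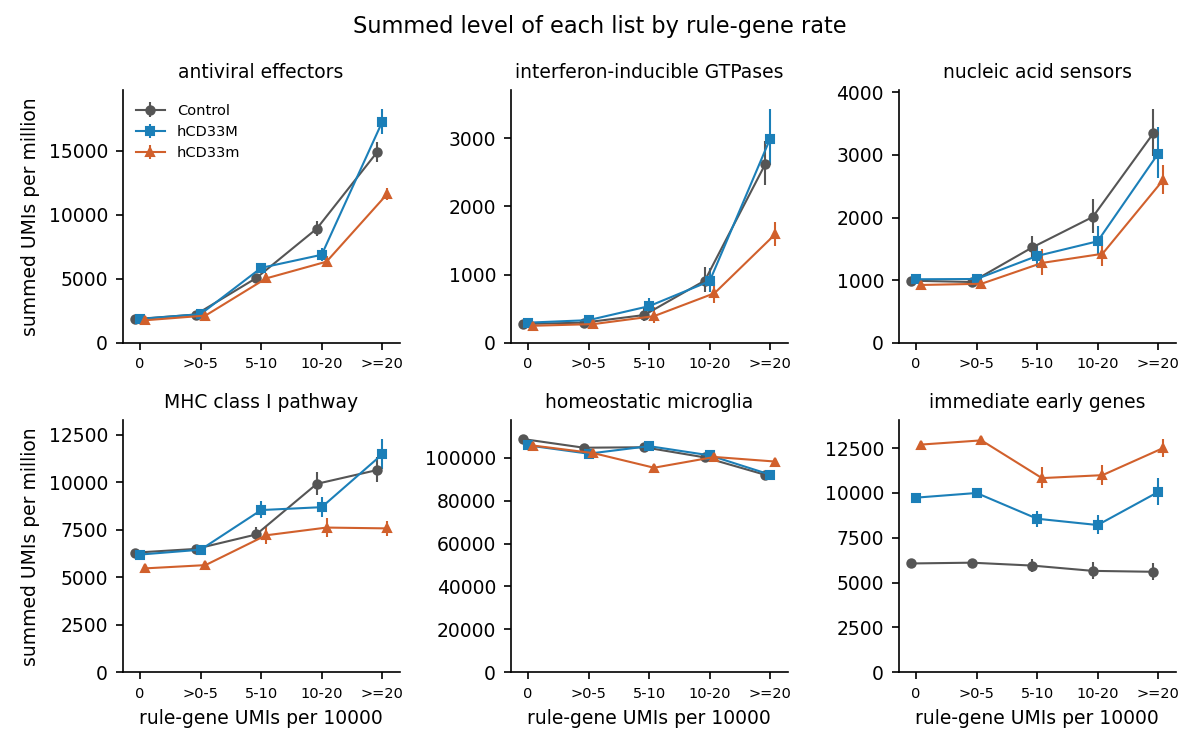
Summed level of 6 gene lists (CPM, y axis from 0) in cells of at least 2000 UMIs by range of the rule-gene rate (UMIs per 10000, x axis) in each library, with exact Poisson 95% intervals. Antiviral effectors rise in every library, to 14925, 17263 and 11615 in the top range, while immediate early genes keep the order of the libraries in every range.

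The share of these cells was alike in the 3 libraries within counting error. Members were 47 of 5818 passing cells in Control (0.808%, exact binomial 95% interval 0.594 to 1.07%), 42 of 5647 in hCD33M (0.744%, 0.537 to 1.00%) and 51 of 5942 in hCD33m (0.858%, 0.640 to 1.13%). The intervals overlapped widely, and without cells rich in MHC class II the shares were 0.809, 0.727 and 0.795%. Among cells with at least 2000 UMIs the shares were 1.06, 1.01 and 1.03%. After thinning every cell to 4000 UMIs they were 0.868, 0.911 and 0.969%, with 2709, 2682 and 2125 shallower cells left out. After thinning to 2000 UMIs they were 0.495, 0.389 and 0.558%, so the share found depends on depth. With 1 pool of 2 mice for each genotype, differences between mice are not measured, and shares this close would not show a modest difference.

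**Figure D5:**
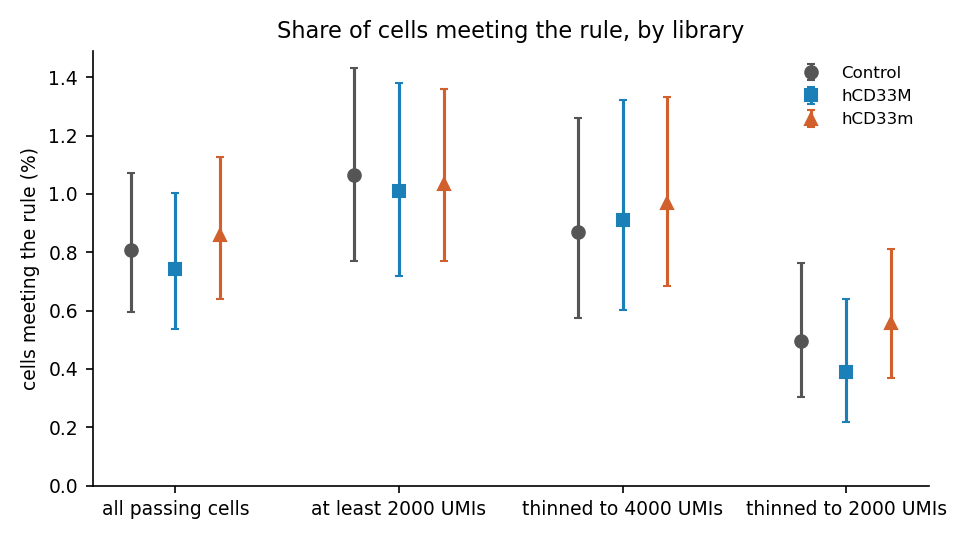
Share of cells meeting the rule (percent, y axis) in each library, over all passing cells, over cells with at least 2000 UMIs, and after thinning each cell to 4000 or 2000 UMIs, with exact binomial 95% intervals. The 3 libraries overlap in every setting, and the level falls to between 0.389 and 0.558% after thinning to 2000 UMIs.

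Within members, antiviral effectors differed little between the libraries. Genes with at least 100 CPM in 1 of 2 libraries were compared, and those at 2-fold or more were counted, a rule of size with no test. Between hCD33m and Control 28 of 1995 genes were higher (1.4%) and 8 lower (0.401%). Between hCD33M and Control 33 of 2011 were higher (1.64%) and 10 lower (0.497%), and between hCD33m and hCD33M 19 of 2006 were higher (0.947%) and 15 lower (0.748%). Without the MHC class II-rich members the counts were 19 and 8, 21 and 12, and 16 and 11. Of the antiviral effectors none was higher in any of the 3 comparisons, and 1 of 31, 0 of 32 and 1 of 31 was lower, with median log2 ratios of -0.05, -0.04 and -0.03. The comparisons share libraries and are not independent.

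Immediate early genes followed the library and not the interferon state. In members, 9 of 18 measured reached 2-fold for hCD33m over Control, 3 of 14 for hCD33M over Control and 2 of 18 for hCD33m over hCD33M, all higher in the first of each pair. Their median log2 ratios were 1.00, 0.64 and 0.46 in members and 1.21, 0.70 and 0.41 in the other cells. Fos, a subunit of the AP-1 factor, was at 37.0, 228 and 558 CPM in members and at 56.5, 248 and 520 in the other cells. The order of the libraries was the same in both classes, and edgeR gave Fos a log2 change of -0.01 between the classes (SD 0.36, adjusted p = 1.00).

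Several of the largest other ratios between libraries rested on few cells. H2-Aa, H2-Ab1, H2-Eb1 and Cd74 were the highest in hCD33m over Control, and came from the MHC class II-rich members. Ccl5 and Cd69 were the highest in hCD33M over Control, at log2 3.41 and 3.15, and lay in the cell described above. Without it Ccl5 was lower in hCD33M than in Control, at log2 -2.87. Cxcl13, a B cell chemokine, was the lowest in both transgenic libraries, with 112 UMIs in Control members (276 CPM), 71 of them in 1 cell, and none in members of the other libraries. Apoe was at log2 -2.67 in hCD33M over Control and 3.92 in hCD33m over hCD33M, and was at 1474 CPM in hCD33m members without the MHC class II-rich ones. Of those remaining hCD33m UMIs 1 cell held 326 of 620, and in Control members 1 cell held 127 of 420. Ccl4, a chemokine, was at 116, 36.6 and 458 CPM in members. It was at 47.2, 24.8 and 97.7 in the other cells, and 153 of its 265 UMIs in members lay in 1 cell. Among genes spread over more cells, Cnp was lower in both transgenic libraries than in Control, at 114, 45.0 and 40.2 CPM, with 41.7, 39.0 and 43.8 in the other cells, and Bhlhe41, a repressor of transcription, was at log2 -1.22 in hCD33m over Control against -0.46 in the other cells.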

How the data were processed

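Single-cell RNA was measured in 3 libraries of sorted mouse brain microglia, 1 per genotype. The authors aligned 10x Chromium 3′ reads to mm10 with Cell Ranger, imported into Seurat the cells that had over 200 genes, dropped a gene seen in under 3 cells, and deposited UMI counts per gene and cell. Seurat and mm10 are also named in the submitters' processing notes. The deposited barcodes (6163, 5920 and 6257 in Control, hCD33M and hCD33m) are those before the study's own quality limits. The study states limits on genes and mitochondrial counts like those used here, yet reports fewer cells left. The cause of that mismatch was not tested, and shares here have larger denominators. A further experiment of the study was not analysed here.

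From these counts, 671 barcodes were left out by the limits on genes and mitochondrial UMIs and others by the marker gates, members were chosen by the rule, and UMIs were summed over members and over other cells in each library. The 6 sums were fitted in edgeR 4.0.16 (R 4.3.3) by the quasi-likelihood test with library and class as terms, filterByExpr, TMM normalization and Benjamini-Hochberg adjustment. The 7 rule genes were left out of the fit. Alternatives were DESeq2 1.42.0, another normalization, no low-count filter, no library block, other cell limits and rule cuts, and leaving out each library. No doublet caller was run, and doublets were limited only by the 8000-gene maximum. Intervals are exact binomial (Clopper-Pearson) or exact Poisson at 95%. Depth limits which cells can meet the rule, since 4 UMIs are needed. In counts simulated for this comparison, 11809 genes were run and 28 of 67 genes changed 1.5-fold, 58 of 67 changed 2-fold and 66 of 66 changed 4-fold were recovered. The changed genes were drawn only from those above a minimum level in the other cells. Counts were drawn at 1 common dispersion (0.00446) with no clumping in single cells. The rates therefore do not cover sparse genes or genes held by few cells.

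Members and gene lists were chosen with earlier results of these data known. Genes were named by a rule, the 12 highest and 8 lowest called fold changes with the same direction in all 3 libraries and at least 50 CPM, up to 4 per list by size of change, and the 5 highest and 5 lowest per comparison of libraries. Other named genes were chosen for their role or after their values were seen. Human CD33 was not measured here. Some genes are not reported here. Promoter sequences and positions came from RefSeq on GRCm38.p6, the assembly that mm10 is a name for. Of 321 higher genes only 255 had a promoter window, so no motif share is given for them. Scripts used Python 3.11.15, numpy 2.4.6, scipy 1.17.1, pandas 2.3.3 and matplotlib 3.10.9.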

Additional observations from a re-analysis of the deposited data

Results flagged for a closer look

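For 4 of the genes that the naming rule gave, the ratio of interferon-responsive to other microglia lay on opposite sides of 0 (log2) in different libraries, with 95% intervals for counting error that excluded 0, and the difference between libraries was not tested. Among all 321 higher genes, 293 were higher in every library. The MHC class II genes were higher in members of both transgenic libraries. H2-Aa was at log2 2.29 in hCD33M and 3.79 in hCD33m, and H2-Eb1 at 1.59 and 3.76, while neither had a UMI in Control members. H2-Ab1 was at log2 1.70 in hCD33M, 3.63 in hCD33m and -2.96 in Control. All UMIs of H2-Aa and H2-Eb1 in members lay in 5 cells, 1 in hCD33M and 4 in hCD33m. Apoe was at log2 0.67 in Control, 2.22 in hCD33m and -1.49 in hCD33M, and 326 of its 1582 UMIs in members lay in 1 cell.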

How the results depend on the processing

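The number of genes higher in members (321 in the reported fit) stayed within 1.5 times of that under every alternative, from 227 to 277 when 1 library was left out and from 238 to 368 otherwise. The number of lower genes (64) fell to 13 with no library block, to 11 with DESeq2, and to between 23 and 48 when 1 library was left out, and the cause was not tested. Leaving out hCD33m gave 23, Control 48 and hCD33M 37, of which 17, 26 and 26 were among the 64. All 11 from DESeq2 were among the 64, and cells of 3000 to 10000 UMIs gave 66 lower genes, of which 30 were. Ccr2 reversed, to log2 -0.22 with a cut of 6 UMIs and 10 per 10000, -1.56 without the MHC class II-rich cells, -0.33 with DESeq2, and from -1.97 to 1.72 when 1 library was left out. The library block pairs members with other cells of the same library. Between genotypes no paired analysis was possible because each has a single library, so the block is the library and not a replicate number. Shares in Control, hCD33M and hCD33m were 0.481, 0.390 and 0.572% with that cut and 0.495, 0.389 and 0.558% after thinning to 2000 UMIs, and the hCD33M share was 1.01% among cells with at least 2000 UMIs.

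Counts of genes between libraries moved most. With the higher cut they were 67 higher and 36 lower (hCD33m over Control), 90 and 60 (hCD33M over Control) and 43 and 59 (hCD33m over hCD33M). At a minimum of 200 CPM they were 15 and 2, 8 and 2, and 10 and 3, and at a fold of 1.5 they were 106 and 95, 116 and 86, and 89 and 99. With a mean over cells they were 53 and 48 for hCD33M over Control and 40 and 39 for hCD33m over hCD33M, with 32 lower for hCD33m over Control. Without the MHC class II-rich cells, or without the member with most rule-gene UMIs, both chosen after seeing the data, 21 genes were higher in hCD33M over Control and Ccl5 was at log2 -2.87. In hCD33m over hCD33M, Ccl5 was then at 3.61 or 3.52, Rsad2 at 0.046 or 0.081, and H2-Q7 at 0.0018 without the first set. Cells of 3000 to 10000 UMIs gave a log2 ratio of 3.26 in Control and 3.07 in hCD33m for the antiviral effectors in the top range.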

Other observations

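Of the 321 genes higher in interferon-responsive microglia, 175 belonged to none of the gene lists used, and 160 of those were higher in every library. Those named here were chosen after their values were seen. Rnf213, a giant ubiquitin ligase, was at 175, 160.3 and 179 CPM in members against 28.3, 29.0 and 26.1 in the other cells, in the order Control, hCD33M, hCD33m (log2 2.66, SD 0.15, edgeR adjusted p = 8.7e-59). Fcgr4, an activating receptor for IgG, was at log2 1.69 (SD 0.23), and Nampt, which makes a precursor of NAD, at 1.55 (SD 0.12). Tspo, the mitochondrial protein that PET tracers of microglia bind, was at 168, 177 and 263 CPM against 90.6, 77.1 and 86.7 (log2 1.29, SD 0.36). Cd47, which signals against phagocytosis, was at 479, 518 and 518 CPM against 291, 299.6 and 277 (log2 0.83, SD 0.09). Of the 64 lower genes 57 belonged to no list, and all 57 were lower in every library.

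Cells over the marker gates also met the rule-gene limits. These were 7 of 67 cells over the monocyte gate (10.4%, exact binomial 95% interval 4.30 to 20.3%) and 7 of 198 over the border macrophage gate (3.54%, 1.43 to 7.15%), against 0.804% of passing cells (0.677 to 0.948%). The gated cells were deeper, with medians of 9885 UMIs over the monocyte gate and 10198.5 over the border macrophage gate against 4472 in passing cells.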
